A study of Homo sapiens with 12 samples.

Results

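The genes that extracellular signal-regulated kinase (ERK) induces as its own feedback were followed in 4 sublines of the human mast cell leukemia line HMC-1. A fixed set of 10 genes was taken by symbol from the 58381 genes in the tables, namely the phosphatase genes DUSP4, DUSP5 and DUSP6, the Sprouty genes SPRY1, SPRY2 and SPRY4, SPRED1 and SPRED2, and the transcription factor genes ETV4 and ETV5. Of these, 9 of 10 passed the filter on low counts that also kept 15944 genes in all, and SPRY1 was left out of the tests by it. The 10 genes were listed by symbol for their role in ERK feedback, without a threshold on measured values, although earlier results of these data were known when they were chosen.

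Polyadenylated RNA was sequenced from 12 cultures, 3 for each subline. All 4 groups carry an activating mutation of the receptor KIT, so that no group has only normal KIT. The paper describes these mutations as heterozygous, so a normal allele is present beside the mutant one. HMC-1.1 cells carry V560G-KIT, in the juxtamembrane domain of the receptor. HMC-1.2 cells carry V560G-KIT together with D816V-KIT, in the kinase domain. The 2 HMC-1.3 clones were made from HMC-1.2 cells with CRISPR/Cas9, which turned V560G-KIT back to the normal codon. The repair template also held a silent change in the next codon. These clones carry D816V-KIT on a single allele, as HMC-1.2 cells do. Each HMC-1.3 group is 1 clone grown from a single cell, so that the repair and what came with the cloning cannot be told apart within a clone. The 3 libraries of a group came from cells plated together, and p-values measure the spread between these cultures.

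In a mast cell, KIT that has bound stem cell factor, or that a mutation keeps active, recruits adaptors which load RAS with GTP, and RAS then starts the kinase cascade of RAF, MEK and ERK. Active ERK raises the transcription of genes whose products slow the same cascade, and their transcripts are widely used as a readout of ERK activity. Dual-specificity phosphatases remove the activating phosphates from ERK and related kinases, Sprouty and SPRED proteins act between the receptor and RAF, and ETV4 and ETV5 are ETS transcription factors whose genes respond to ERK.

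Expected counts, which are estimates of the reads of each gene, added up to 29225900 to 43181402 per library. Libraries of a group differed beyond counting error (chi-square over its degrees of freedom, 2.92 to 8.22), so none was counted as a repeat of another. Of 10 mast cell markers, 7 were above 1 FPKM (fragments scaled by transcript length and library size) in every library, among them KIT at 346 to 469 FPKM, whereas MS4A2 stayed at 0.06 to 0.45 FPKM, FCER1A at 0.12 to 1.27 FPKM and CMA1 at 0 to 0.15 FPKM. The summed level of these 10 markers ranged over 2257 to 2292 FPKM among HMC-1.2 libraries and over 1550 to 1661 FPKM among the other 9. Of 8 markers of other lineages, 6 stayed under 1 FPKM in every library, CD3E and MS4A1 among them, and HBB stood at 0.47 to 3.26 FPKM. The KIT genotype of the libraries was not checked, since no reads were used.

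The most abundant members were DUSP6, with a mean of 161 FPKM over the 12 libraries, and DUSP4, with 107 FPKM. ETV4 (39.9 FPKM), ETV5 (24.4 FPKM), SPRED2 (18.3 FPKM), SPRED1 (17.4 FPKM) and DUSP5 (13.9 FPKM) followed. Sprouty transcripts were scarce, with a mean of 1.36 FPKM for SPRY2, 0.080 FPKM for SPRY4 and 0.033 FPKM for SPRY1. Within the genes that passed the filter, 95.9% had a lower mean FPKM than DUSP6 and 23.1% a lower mean than SPRY2. Phosphatase and ETS factor transcripts made up most of the summed level of the 10 genes.

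DUSP4 was the member that set HMC-1.2 apart, whose level was 6.57 to 6.69 times lower than in the other groups. The gene encodes a nuclear phosphatase of ERK and of the stress kinases JNK and p38, and lies at chr8:29333064-29350684 on the minus strand (GRCh38), with 4 exons in its canonical transcript. In HMC-1.2 its level was 19.7, 19.9 and 20.7 FPKM in the 3 libraries. The HMC-1.1 libraries had 140, 139 and 135 FPKM, those of HMC-1.3 clone 1 had 140, 133 and 139 FPKM, and those of clone 2 had 133, 135 and 134 FPKM. All 9 libraries of these groups lay far above the 3 of HMC-1.2. Among them, clone 1 overlapped with both other groups, whereas the 3 libraries of clone 2 lay just below those of HMC-1.1. The mast cell markers also set HMC-1.2 apart, but not in 1 direction. The higher sum of HMC-1.2 came mainly from the tryptase gene TPSAB1, at 592 ± 17 FPKM (SD, n = 3) there and means of 29.4 to 44.2 FPKM elsewhere, whose reads may be shared with its near-identical copy TPSB2. TPSB2 (96.6 against 35.0 to 40.7 FPKM), HDC (1009 against 852 to 895 FPKM) and MS4A2 (0.353 against 0.083 to 0.117 FPKM) also had higher means in HMC-1.2. KIT (356 FPKM against 405 to 450 FPKM), GATA2 (213 against 232 to 240 FPKM) and CPA3 (3.31 against 7.52 to 10.9 FPKM) had lower means in HMC-1.2, as DUSP4 did. For FCER1A, HPGDS and CMA1 the mean of HMC-1.2 lay within the range of the other group means. The part of these markers in the DUSP4 difference was not tested. In bulk RNA, fewer cells with a transcript and less transcript per cell cannot be told apart.

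In the test over all genes, a gene was called when its adjusted p was under 0.05 and its fold change over 1.5 (edgeR's quasi-likelihood test, with p-values adjusted by the Benjamini-Hochberg method). Against HMC-1.2, the log2 fold change of DUSP4 was 2.72 (SE 0.03) in HMC-1.3 clone 1, with an edgeR adjusted p of 8.07e-20. It was 2.72 (SE 0.03) in clone 2, with an edgeR adjusted p of 6.51e-20. For HMC-1.1 it was 2.74 (SE 0.03), with an edgeR adjusted p of 5.63e-20. All 3 use one and the same set of HMC-1.2 libraries, so they are set side by side only. By p-value the gene ranked 4, 5 and 5 among the 15944 genes, and by size of the rise 136, 117 and 121.

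Between the other groups no difference in DUSP4 passed the test. The 2 clones differed by 0.00 on the log2 scale (95% interval -0.06 to 0.07, edgeR adjusted p = 0.95). Clone 1 differed from HMC-1.1 by -0.02 (95% interval -0.09 to 0.04, edgeR adjusted p = 0.60) and clone 2 from HMC-1.1 by -0.03 (95% interval -0.09 to 0.04, edgeR adjusted p = 0.48). No bound of these intervals lies farther than 0.09 from 0. In order of level the groups ran HMC-1.1, clone 1, clone 2 and HMC-1.2, and only the last step exceeded the spread.

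**Figure D1:**
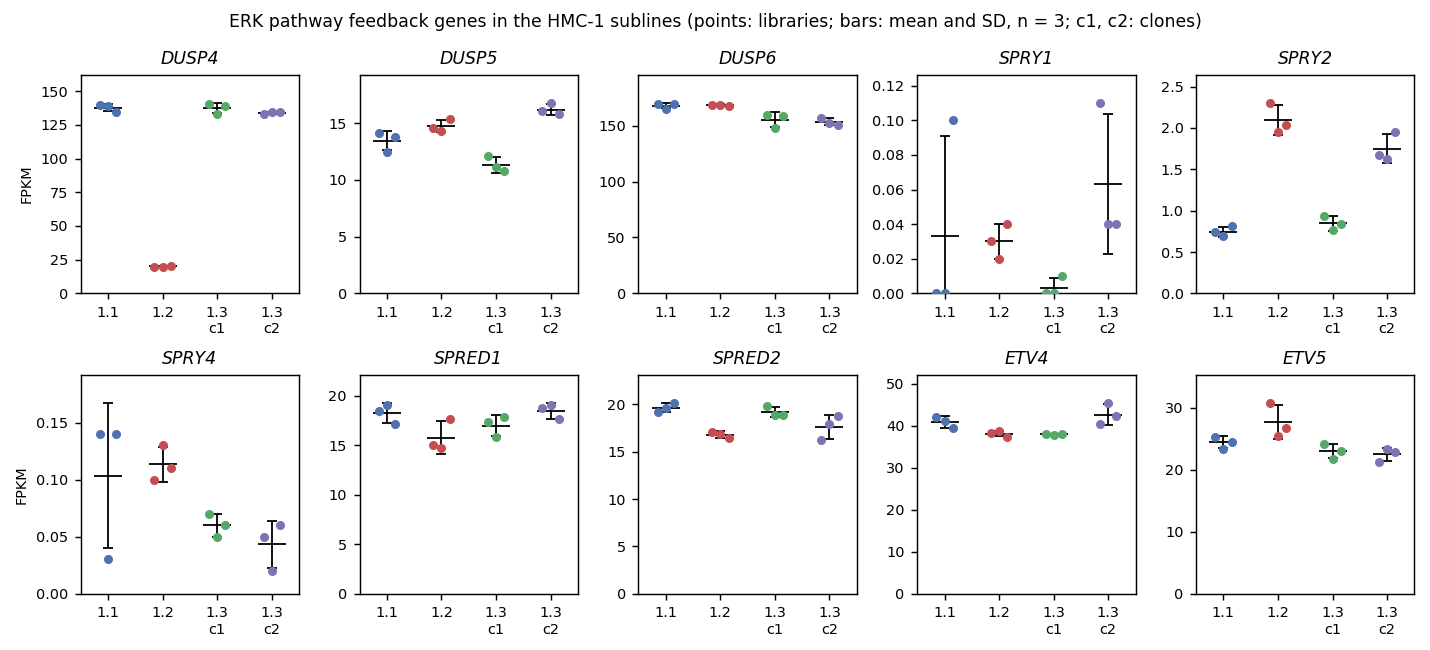
Level of the 10 ERK feedback genes in FPKM (linear axes from 0, a separate scale for each gene) by subline, where c1 and c2 are the HMC-1.3 clones. Points are libraries and bars the mean and SD of 3; DUSP4 stood at 19.7 to 20.7 FPKM in HMC-1.2 and at 133 to 140 FPKM elsewhere, while DUSP6 stayed within 148 to 169 FPKM in all 12 libraries.

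DUSP6, the cytoplasmic phosphatase that acts on ERK almost alone and the transcript most often read as ERK output, hardly varied. The gene lies at chr12:89347235-89352501 on the minus strand. HMC-1.1 libraries held 169, 165 and 169 FPKM and HMC-1.2 libraries 169, 169 and 168 FPKM, as against 160, 148 and 159 FPKM for clone 1 and 157, 153 and 151 FPKM for clone 2. In FPKM every library of both clones was below every library of HMC-1.1 and HMC-1.2, but the margin was small. Clone 1 had a log2 difference of -0.14 (SE 0.03, edgeR adjusted p = 0.00087) from HMC-1.2 and clone 2 one of -0.15 (SE 0.03, edgeR adjusted p = 0.00053), well under the 1.5-fold limit. For HMC-1.1 the value was -0.07 (SE 0.03, edgeR adjusted p = 0.049). Neither clone passed the test against HMC-1.1, with -0.06 (edgeR adjusted p = 0.16) for clone 1, which overlapped with it in CPM, and -0.08 (edgeR adjusted p = 0.058) for clone 2. The highest group mean of DUSP6 exceeded the lowest by a factor of 1.096 in counts scaled by library size (CPM), compared with 6.84 for DUSP4.

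The ratio of the 2 phosphatase transcripts was also taken within each library. HMC-1.2 cells held DUSP4 at 0.119 ± 0.003 (SD, n = 3) of the DUSP6 level in FPKM, whereas the ratio was 0.821 ± 0.023 for HMC-1.1, 0.884 ± 0.014 for clone 1 and 0.874 ± 0.022 for clone 2. The lowest ratio outside HMC-1.2 was 0.795 and the highest within it 0.123. Of the summed FPKM of all 10 members, DUSP4 made up 6.61% ± 0.18 among HMC-1.2 libraries, 32.6% ± 0.47 among those of HMC-1.1, and 34.2% ± 0.19 and 33.0% ± 0.25 among those of clones 1 and 2. The difference in DUSP4 was thus not shared by the member nearest to it in level.

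DUSP5, a nuclear phosphatase specific for ERK, differed between the 2 clones, by less than the 1.5-fold limit. It lies at chr10:110497907-110511533 on the plus strand. HMC-1.1 libraries had 14.2, 12.5 and 13.7 FPKM and HMC-1.2 libraries 14.5, 14.3 and 15.3 FPKM. Clone 1 had 12.1, 11.1 and 10.8 FPKM and clone 2 had 16.1, 16.8 and 15.8 FPKM, so that the clones lay on opposite sides of HMC-1.2 with no overlap in FPKM. Clone 1 was lower than clone 2 by a log2 difference of -0.54 (SE 0.05, edgeR adjusted p = 3.12e-07), close to but under the 1.5-fold limit. In this comparison 50.2% of all genes passed by adjusted p alone. Set against HMC-1.2, DUSP5 differed by -0.44 (SE 0.06, edgeR adjusted p = 2.89e-06) for clone 1 and by 0.11 (SE 0.05, edgeR adjusted p = 0.11) for clone 2. HMC-1.1 lay between the clones, at a log2 difference of -0.17 (SE 0.05, edgeR adjusted p = 0.015) from HMC-1.2. Without replicate 1 of clone 1 the difference between the clones passed the limit, at a log2 value of -0.60.

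**Figure D2:**
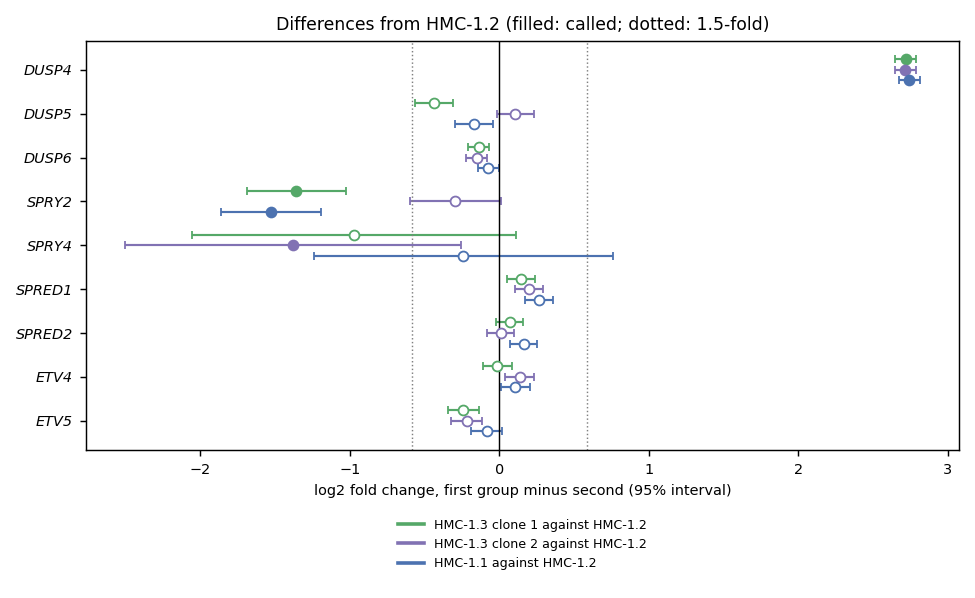
Log2 fold change of the 9 tested members against HMC-1.2 (x axis) with 95% intervals, in HMC-1.3 clone 1 (green), clone 2 (purple) and HMC-1.1 (blue). Filled points were called, dotted lines mark 1.5-fold, and all 3 comparisons use the same HMC-1.2 libraries; DUSP4 lies at 2.72 to 2.74, and SPRED1, SPRED2, ETV4, ETV5 and DUSP6 lie between -0.24 and 0.26.

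SPRY2, which encodes an inhibitor of signalling from receptor tyrosine kinases to RAS and ERK, followed another pattern than DUSP4, as HMC-1.2 and clone 2 stood against HMC-1.1 and clone 1. The gene lies at chr13:80335976-80341126 on the minus strand, with 2 exons in its canonical transcript. HMC-1.2 libraries had 162, 115 and 113 counts and clone 2 libraries 110, 121 and 158, as against 52, 49 and 58 counts for HMC-1.1 and 63, 55 and 55 for clone 1. In FPKM this was 2.097 ± 0.182 (SD, n = 3), 1.75 ± 0.174, 0.747 ± 0.060 and 0.847 ± 0.090, in the same order of groups. The 6 libraries with the higher level, from 1.63 to 2.30 FPKM, did not overlap with the 6 others, from 0.69 to 0.94 FPKM.

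Clone 1 was lower in SPRY2 than HMC-1.2 by a log2 difference of -1.36 (SE 0.14, edgeR adjusted p = 3.63e-07), and HMC-1.1 by -1.53 (SE 0.15, edgeR adjusted p = 1.27e-07). For clone 2 the difference from HMC-1.2 was -0.29 (95% interval -0.60 to 0.01, edgeR adjusted p = 0.079). Tested directly, the 2 clones differed by -1.06 (SE 0.14, edgeR adjusted p = 1.03e-05), clone 1 being lower. Clone 2 was higher than HMC-1.1 by 1.23 (SE 0.15, edgeR adjusted p = 4.29e-06), and clone 1 and HMC-1.1 were not distinguishable (0.17, 95% interval -0.20 to 0.53, edgeR adjusted p = 0.52). The order of level was thus HMC-1.2, clone 2, clone 1 and HMC-1.1, in which the middle step alone exceeded the spread. On the log2(FPKM + 1) scale, which understates the change of low genes, the difference between the clones was -0.57 and no longer over 1.5-fold.

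The promoters of SPRY2 and DUSP6 are shown since they belong to a member whose group means in CPM varied by a factor of 2.82 and to the member that varied least. The bases are the 250 upstream of the start of the transcript in RefSeq (GRCh38.p14), 5′ to 3′ on the strand of the gene, at chr13:80341127-80341376 (minus) for SPRY2 and chr12:89352502-89352751 (minus) for DUSP6, and capitals mark the letters CCGGAA at the core of many ETS sites.
SPRY2: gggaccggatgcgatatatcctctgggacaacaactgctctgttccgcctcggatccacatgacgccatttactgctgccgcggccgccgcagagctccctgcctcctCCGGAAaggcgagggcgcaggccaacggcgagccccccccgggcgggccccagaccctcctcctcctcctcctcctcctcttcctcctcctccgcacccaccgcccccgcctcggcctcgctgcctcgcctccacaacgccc
DUSP6: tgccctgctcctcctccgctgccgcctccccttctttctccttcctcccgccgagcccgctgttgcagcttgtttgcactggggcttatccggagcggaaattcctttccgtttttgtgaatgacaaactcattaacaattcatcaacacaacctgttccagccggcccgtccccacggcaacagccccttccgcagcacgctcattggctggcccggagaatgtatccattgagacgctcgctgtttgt
RefSeq gives 3 starts of SPRY2, of which the farthest upstream is shown. Its window holds 1 match, which begins 142 bases before the start, the windows of the other 2 starts hold none, and the DUSP6 window holds none of these letters. With both strands searched in windows of 300 bases (250 before to 50 after the start), CCGGAA occurred in 17.2% of 35116 promoters, TGANTCA (AP-1) in 7.71% and TGACGTCA (CRE, the cyclic AMP response element) in 1.85%. The letters of none of the 3 motifs contain those of another. RefSeq windows were found for 6 of the 10 members (DUSP6, SPRY1, SPRY2, SPRY4, SPRED1 and SPRED2), and a match in them is a description of letters and not a site. A second start of SPRY1 had 1 match of the ETS letters and a second start of SPRED2 had 2 of the AP-1 letters. DUSP4, DUSP5, ETV4 and ETV5 are named only.

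SPRY4 and SPRY1 were at the limit of detection. SPRY4 (chr5:142310427-142326455, minus strand), another inhibitor of the same family, had 24, 5 and 16 counts for HMC-1.1, 18, 15 and 12 for HMC-1.2, 10, 8 and 8 for clone 1 and 6, 4 and 11 for clone 2. Every library of both clones was below every library of HMC-1.2, whereas HMC-1.1 overlapped with all of them. The difference from HMC-1.2 was -1.38 (SE 0.49, edgeR adjusted p = 0.027) in clone 2, which was called, and -0.97 (SE 0.47, edgeR adjusted p = 0.086) in clone 1, which was not. That of clone 1 was called under 2 of 20 alternative fits, among them a fit of those 2 groups alone (edgeR adjusted p = 0.031). The clones themselves were not distinguishable in SPRY4 (0.41, 95% interval -0.82 to 1.63, edgeR adjusted p = 0.55). The call in clone 2 was lost against a 1.5-fold limit tested by edgeR's glmTreat (adjusted p = 0.21), on both FPKM scales, and when replicate 1 or 2 of HMC-1.2 or replicate 1 or 2 of clone 2 was left out (edgeR adjusted p 0.063 to 0.112). SPRY1 (chr4:123396795-123403760, plus strand) had 0, 0 and 4 counts for HMC-1.1, 2, 1 and 1 for HMC-1.2, 0, 0 and 1 for clone 1 and 5, 3 and 4 for clone 2, and was not tested. Every library of clone 1 had fewer SPRY1 counts than every library of clone 2, while HMC-1.1 overlapped with both clones.

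SPRED1 and SPRED2 encode Sprouty-related proteins that restrain RAS and RAF, SPRED1 by bringing neurofibromin to the membrane. SPRED1 (chr15:38252836-38357249, plus strand) had 18.5, 19.1 and 17.1 FPKM for HMC-1.1, 15.01, 14.7 and 17.6 FPKM for HMC-1.2, 17.3, 15.8 and 17.8 FPKM for clone 1 and 18.7, 19.1 and 17.6 FPKM for clone 2. In FPKM the groups overlapped in this gene, as replicate 3 of HMC-1.2 reached the level of the others, whereas in CPM all 3 libraries of HMC-1.2 lay below the other 9. Clone 1 exceeded HMC-1.2 by a log2 difference of 0.15 (SE 0.04, edgeR adjusted p = 0.0056), clone 2 by 0.20 (SE 0.04, edgeR adjusted p = 0.00060) and HMC-1.1 by 0.26 (SE 0.04, edgeR adjusted p = 3.62e-05). SPRED2 (chr2:65310851-65432637, minus strand) had 19.1, 19.6 and 20.1 FPKM for HMC-1.1, 17.1, 16.9 and 16.4 FPKM for HMC-1.2, 19.9, 18.9 and 18.8 FPKM for clone 1 and 16.2, 17.9 and 18.7 FPKM for clone 2. Only clone 2 overlapped with HMC-1.2. The difference of SPRED2 from HMC-1.2 was 0.16 (SE 0.04, edgeR adjusted p = 0.0022) for HMC-1.1, 0.07 (edgeR adjusted p = 0.14) for clone 1 and 0.01 (edgeR adjusted p = 0.87) for clone 2. All of these differences were smaller than 1.5-fold, and the SPRED1 to SPRED2 ratio stayed at 0.886 to 1.05 in the group means of FPKM.

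ETV4 and ETV5, ETS factors of the PEA3 group, differed little between the groups. ETV4 (chr17:43527844-43579620, minus strand) had 42.1, 41.1 and 39.4 FPKM for HMC-1.1, 38.1, 38.7 and 37.4 FPKM for HMC-1.2, 38.0, 37.9 and 37.9 FPKM for clone 1 and 40.3, 45.3 and 42.3 FPKM for clone 2. Clone 2 and HMC-1.1 lay above HMC-1.2 in every library, and clone 1 lay within its range. The ETV4 difference from HMC-1.2 was 0.14 (SE 0.04, edgeR adjusted p = 0.011) for clone 2, 0.11 (SE 0.04, edgeR adjusted p = 0.040) for HMC-1.1 and -0.01 (edgeR adjusted p = 0.82) for clone 1. ETV5 (chr3:186046314-186110318, minus strand) had 25.3, 23.4 and 24.5 FPKM for HMC-1.1, 30.7, 25.5 and 26.8 FPKM for HMC-1.2, 24.1, 21.8 and 23.1 FPKM for clone 1 and 21.3, 23.3 and 22.8 FPKM for clone 2. Here HMC-1.2 was the highest group, without overlap in FPKM, but in CPM it overlapped with HMC-1.1. The ETV5 difference from HMC-1.2 was -0.24 (SE 0.05, edgeR adjusted p = 0.00025) for clone 1, -0.22 (SE 0.05, edgeR adjusted p = 0.00078) for clone 2 and -0.09 (SE 0.05, edgeR adjusted p = 0.13) for HMC-1.1. The ETV4 to ETV5 ratio in FPKM was lowest for HMC-1.2, at 1.39 ± 0.14 (SD, n = 3), with 1.68 ± 0.08 for HMC-1.1, 1.65 ± 0.08 for clone 1 and 1.90 ± 0.05 for clone 2.

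Some members overlap other genes in the annotation. ETV5 shares its strand with part of DGKG, a diacylglycerol kinase gene, which stood at 0.18 to 0.62 FPKM in HMC-1.2 and at most 0.07 FPKM elsewhere, compared with 21.3 to 30.7 FPKM for ETV5. ETV4 overlaps DHX8 on the opposite strand, at 23.0 to 27.6 FPKM, and SPRY4 and ETV5 have antisense genes. The library kit kept the strand, and whether the counting used it is not given in the sources used here, so a contribution of opposite-strand reads was not tested.

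Over the whole set, few members passed both limits against HMC-1.2. In clone 1, 1 of 9 tested members was called higher (DUSP4), where 11.8% of all genes were, and 1 lower (SPRY2), where 8.18% were. In clone 2, 1 was higher (DUSP4, background 7.98%) and 1 lower (SPRY4, background 8.51%). In HMC-1.1, 1 was higher (DUSP4, background 10.1%) and 1 lower (SPRY2, background 7.52%). With 9 members, 1 call in a direction is near these shares, so the number of calls does not set the members apart from other genes. The median log2 difference of the 9 members was -0.14 for clone 1, 0.01 for clone 2 and -0.07 for HMC-1.1, beside medians over all genes of 0.01, -0.00 and 0.01.

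By adjusted p alone, without a limit on size, 6 of 9 members set clone 1 apart from HMC-1.2 (2 higher, 4 lower), 6 did so for clone 2 (3 higher, 3 lower) and 7 for HMC-1.1 (4 higher, 3 lower). The background for the same rule was 59.4%, 48.5% and 53.7% of all genes. These counts and shares include the genes called over 1.5-fold.

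**Figure D3:**
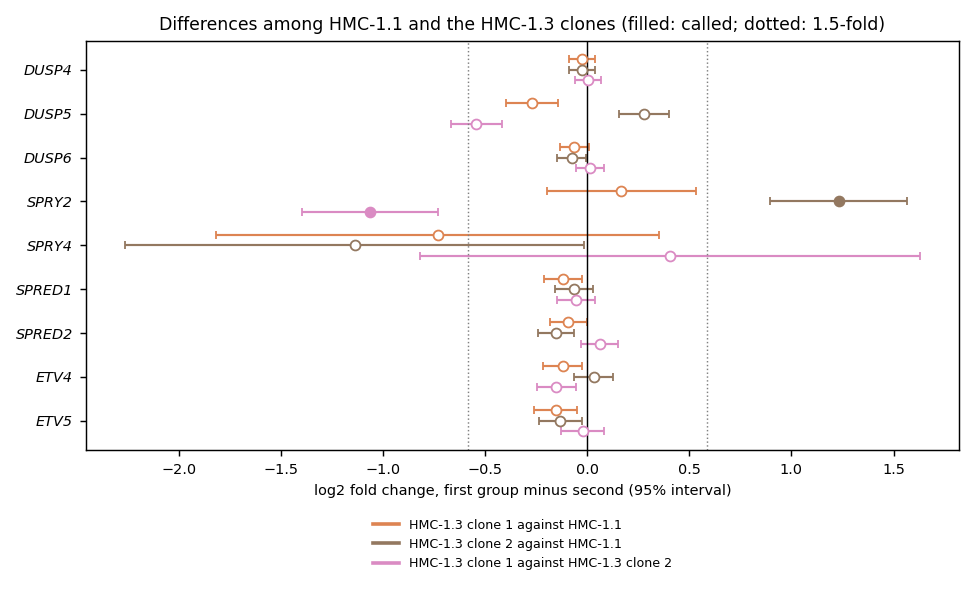
Log2 fold change of the 9 tested members (x axis) with 95% intervals for clone 1 against HMC-1.1, clone 2 against HMC-1.1 and clone 1 against clone 2. Filled points were called and dotted lines mark 1.5-fold; SPRY2 was called in both comparisons with clone 2, at 1.23 and -1.06, and DUSP4 lay between -0.03 and 0.00 in all 3.

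Among the other groups, the members differed less. Clone 1 against HMC-1.1 gave 0 of 9 members called higher (background 0.671%) and 0 lower (background 0.339%), with 2 of 9, DUSP5 and ETV5, at an edgeR adjusted p under 0.05 (background 18.7%). At an unadjusted p under 0.05 there were 5 of 9 (background 31.4%), and DESeq2 also called 0. Clone 2 against HMC-1.1 gave 1 higher (SPRY2, background 3.04%) and 0 lower (background 5.15%), and 4 by adjusted p alone (background 36.0%). Clone 1 against clone 2 gave 0 higher (background 8.38%) and 1 lower (SPRY2, background 4.25%), and 3 by adjusted p alone (background 50.2%), namely DUSP5, SPRY2 and ETV4. The median difference of the members was -0.12, -0.06 and -0.02 in these comparisons.

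The genomic neighbours of DUSP4 differed by less than DUSP4 itself. The 10 tested genes on either side of it had a median log2 difference from HMC-1.2 of -0.19 for clone 1, -0.06 for clone 2 and -0.00 for HMC-1.1. The most extreme neighbours lay at -1.02 and 1.27, and 3, 1 and 3 of the 20 were called higher (background 11.8%, 7.98% and 10.1%) and 1 lower in each comparison (background 8.18%, 8.51% and 7.52%). Of the genes next to it, KIF13B had log2 differences of 0.73, 0.54 and 0.70 and SARAF of 0.03, -0.06 and -0.00. Around SPRY2, the 20 neighbours had medians of -0.01, 0.04 and -0.08 and none reached the difference of SPRY2 in clone 1 or HMC-1.1. With 25 genes on either side the medians around DUSP4 were -0.10, -0.00 and -0.01.

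**Figure D4:**
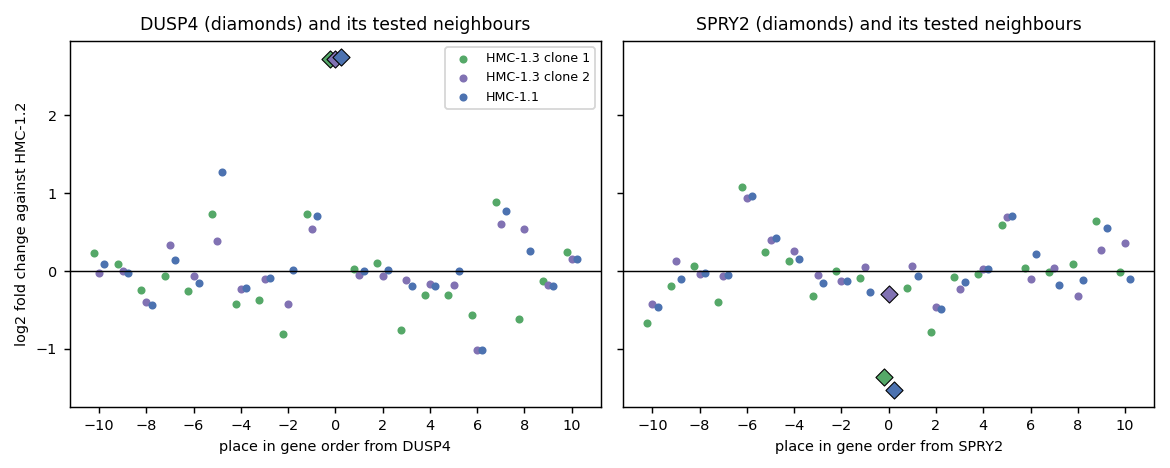
Log2 fold change against HMC-1.2 (y axis) of DUSP4 (left) and SPRY2 (right), drawn as diamonds, and of the 10 tested genes on either side in gene order (x axis, place from the member). Colours mark HMC-1.3 clone 1, clone 2 and HMC-1.1, which share the HMC-1.2 libraries; the DUSP4 diamonds at 2.72 to 2.74 stand above all neighbours, of which the highest is 1.27.

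Genes of other steps of the pathway were counted in lists set by function. Of all genes tested, 11.8% were called higher and 8.18% lower for clone 1 against HMC-1.2. These shares were 7.98% and 8.51% for clone 2 against HMC-1.2, and 10.1% and 7.52% for HMC-1.1. Among the other groups they were 8.38% and 4.25% for clone 1 against clone 2. Against HMC-1.1 they were 0.671% and 0.339% for clone 1, and 3.04% and 5.15% for clone 2. They are the background for every list. Of 7 other MAP kinase phosphatases, all tested, 1 was higher and 4 lower for clone 1 against HMC-1.2, with 1 higher and 3 lower for both clone 2 and HMC-1.1. DUSP7, a cytoplasmic ERK phosphatase related to DUSP6, was lower, at 10.8 ± 0.77 FPKM (SD, n = 3) for clone 1 and 12.1 ± 0.55 FPKM for clone 2, where HMC-1.2 had 18.7 ± 0.19 FPKM (log2 differences -0.85 and -0.65). DUSP8, which prefers JNK and p38, was lower as well (-1.04 and -1.205) against 0.963 FPKM for HMC-1.2. DUSP16, which acts mainly on JNK, was higher (0.80 and 0.82), at 4.71 ± 0.49 FPKM for clone 1 and 4.84 ± 0.20 FPKM for clone 2, where HMC-1.2 had 2.62 ± 0.18 FPKM. HMC-1.1 had means of 10.9 FPKM for DUSP7, 0.507 FPKM for DUSP8 and 4.37 FPKM for DUSP16. The median of this list was -0.69 for clone 1, -0.48 for clone 2 and -0.46 for HMC-1.1, so these phosphatases lay mostly on the other side from DUSP4. Between the clones, and between each clone and HMC-1.1, none of the 7 was called.

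Of 14 other transcriptional outputs of ERK, 13 were tested. Among them, 0 were higher and 5 lower for clone 1 against HMC-1.2, 2 higher and 3 lower for clone 2, and 0 higher and 5 lower for HMC-1.1, with medians of -0.22, 0.27 and -0.14. In the same order, the background was 11.8%, 7.98% and 10.1% higher and 8.18%, 8.51% and 7.52% lower. CCND1, which encodes the cell cycle regulator cyclin D1, stood at 1.34 ± 0.27 FPKM (SD, n = 3) for clone 1 and 4.62 ± 0.53 FPKM for clone 2, where HMC-1.2 had 10.3 ± 0.80 FPKM (log2 differences -3.03 and -1.07). The transcription factor genes EGR3 (-1.80 and -1.41) and FOS (-1.67 and -0.87) were also lower in the clones. The level of FOS was 7.53 ± 0.61 FPKM for clone 1, 13.3 ± 0.96 FPKM for clone 2 and 23.4 ± 2.6 FPKM for HMC-1.2. HMC-1.1 had means of 1.35 FPKM for CCND1, 0.237 FPKM for EGR3 and 14.5 FPKM for FOS. Of the genes outside the rule for naming, given after their values were seen, the 2 higher in clone 2 were PHLDA1 (0.99) and EPHA4 (1.65), and EGR1 (-1.11) and LIF (-1.001) completed the 5 lower in clone 1. The clones differed from each other in 5 genes of this list (CCND1, EGR1, FOS, LIF and EPHA4), all lower in clone 1 (background 4.25%), with CCND1 at -1.97 (SE 0.09, edgeR adjusted p = 3.70e-11). Clone 2 against HMC-1.1 gave 4 higher (EPHA4, CCND1, EGR1 and LIF, background 3.04%) and 0 lower (background 5.15%). Clone 1 against HMC-1.1 gave 0 higher (background 0.671%) and 1 lower (FOS, background 0.339%).

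Of 23 components of the cascade from KIT to ERK, 22 were tested and few were called. GAB1, an adaptor that links receptors to RAS activation, was higher for clone 1 (log2 difference 0.84, 1.37 ± 0.26 FPKM) and clone 2 (0.72, 1.13 ± 0.09 FPKM), where HMC-1.2 had 0.767 ± 0.27 FPKM. It was the 1 gene called higher in either clone and in HMC-1.1 (1.05), where 11.8%, 7.98% and 10.1% of all genes were. HRAS, named here after its values were seen, was the 1 gene called lower in clone 1 (-0.63, background 8.18%). None was lower in clone 2 (background 8.51%) or HMC-1.1 (background 7.52%), and the medians were -0.04, -0.04 and -0.04. Between clone 1 and clone 2, 0 were higher and HRAS again was lower (-0.63), and against HMC-1.1 neither clone gave a call.

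Of 10 negative regulators of RAS and RAF, 9 were tested, and 1 was higher and 1 lower than HMC-1.2 for each of the other groups, while none was called in the other 3 comparisons. With 9 genes, 1 call in a direction is near the shares of all genes (7.98% to 11.8% higher, 7.52% to 8.51% lower). The higher one was DAB2IP, a GTPase-activating protein of RAS, at 2.41 ± 0.22 FPKM (SD, n = 3) for clone 1, 2.53 ± 0.21 for clone 2 and 2.63 ± 0.18 for HMC-1.1, where HMC-1.2 had 0.080 ± 0.036 FPKM. Its counts were 11 to 23 in HMC-1.2 and 468 to 669 in the other 9 libraries, a log2 difference of 4.74 (SE 0.16) in clone 1 and 4.84 (SE 0.15) in clone 2. The lower one was RASA3, another such protein, also named after its values were seen, at a mean of 0.220 FPKM for HMC-1.2 and 0.030 to 0.037 FPKM elsewhere. Among SPRY3, SPRED3 and ETV1, 2 of 3 were tested, and SPRED3 was called higher in clone 1 (0.60, edgeR adjusted p = 0.040) and clone 2 (0.74, edgeR adjusted p = 0.015), with no gene lower and no call in any other comparison. DESeq2 did not call SPRED3 in clone 1.

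**Figure D5:**
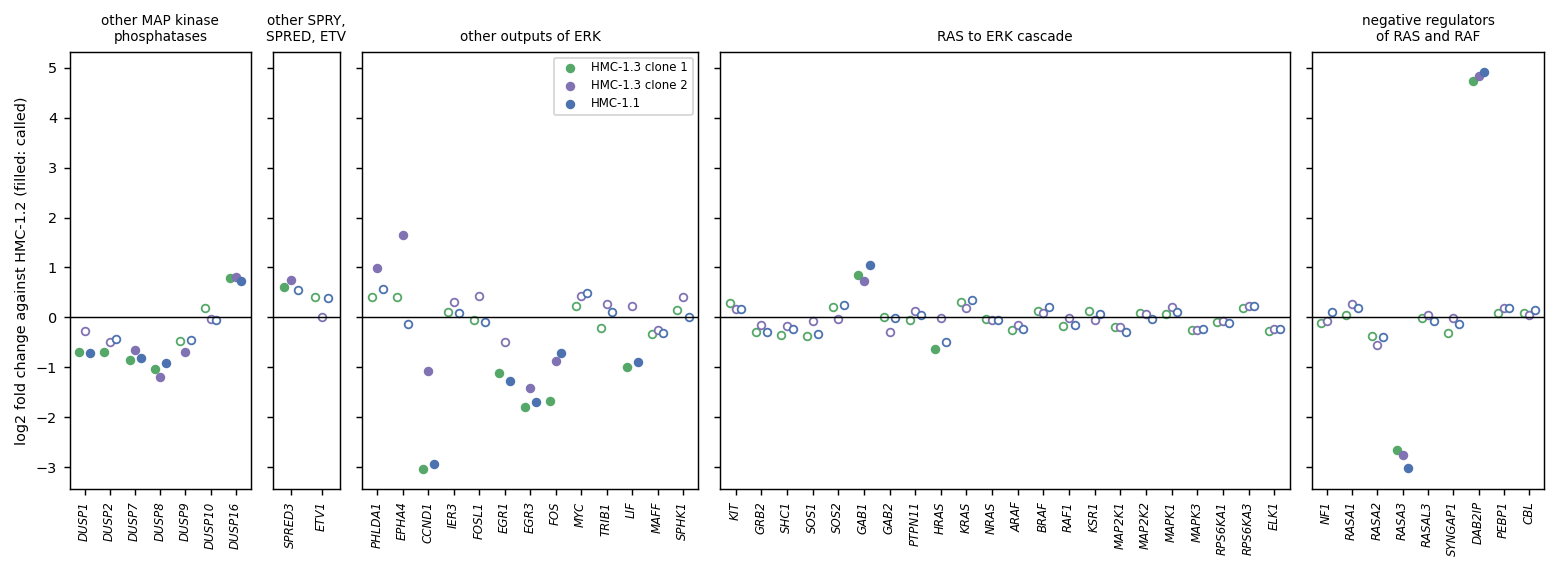
Log2 fold change against HMC-1.2 (y axis) of the tested genes of 5 pathway lists, 1 gene per place on the x axis, in HMC-1.3 clone 1, clone 2 and HMC-1.1. Filled points were called; DAB2IP at 4.74 to 4.92 is the highest, CCND1 at -3.03 in clone 1 the lowest, and most of the cascade genes lie near 0.

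The genes whose log2 CPM resembled a member most over the 12 libraries were sought among the 13113 genes whose mean reached 1 CPM, and the 12 points share 4 groups, so that a high value describes the pattern of groups. SPRY2 was most like NR2F2 (Pearson r = 0.990), TGM2 (0.989) and GRAP2 (0.983). DUSP6 was most like ADSS (0.917), SNX1 (0.916) and JAG2 (0.915), SPRED2 most like SNHG14 (0.948), UHRF1BP1 (0.947) and ZEB2 (0.941), and ETV4 most like C16orf70 (0.937), NF2 (0.908) and C2orf44 (0.908). Ranked by Spearman's rho, the nearest gene changed to SOX13 for SPRY2 (0.972), RALGAPA2 for SPRED2 (0.937) and SNX1 for DUSP6 (0.944, the same as for PDXP and UBQLN4). For ETV4 it stayed C16orf70. For DUSP4, added after its values were seen, the genes most alike were SLCO2B1 (0.999), SH3GL3 (0.998) and BTK (0.998), and those most opposed DNAJA4, ITGAL and CSF1 (each -0.999).

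The members did not vary as 1 group. Over the 12 libraries, the highest correlations between members were those of DUSP6 with ETV5 (Pearson r = 0.857) and DUSP4 with SPRED1 (0.832), and the lowest was that of DUSP4 with DUSP6 (-0.792). DUSP5 and SPRY2, which both differed between the clones, DUSP5 by less than 1.5-fold, had a value of 0.755. These values rest on 4 groups of 3 libraries and share the depth of each library, and they are given as a description.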

How the data were processed

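The deposited table of expected counts holds RSEM estimates per gene, not normalized, and 7.39% of its values are not whole. The deposited FPKM table holds the same genes scaled for transcript length and library size by the authors. Per the labels and the methods of the study, reads of a stranded mRNA kit were trimmed with cutadapt 2.10, aligned to hg38 with STAR 2.5.3, marked for duplicates with Picard and counted with RSEM 1.3.0. Reads that fit more than 1 gene are shared out by RSEM. Groups were taken from the labels, with no library of the 12 left out.

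Rounded counts were tested with edgeR 4.0.16 (R 4.3.3), TMM scaling, filterByExpr, and a quasi-likelihood fit of the 4 groups without covariates. Benjamini-Hochberg adjustment of p-values ran over the 15944 genes of a comparison. Intervals are 95% intervals on 8 residual degrees of freedom. The test also draws on the spread of other genes, so these intervals are wider than it implies. For SPRY2 in clone 2 against HMC-1.2 the interval includes 0, while the unadjusted p of the edgeR test was 0.041. Positions were taken from Gencode 44 (GRCh38) by the identifier without its version, which matched 99.0% of identifiers. The members, lists and tests were chosen with earlier results of these data known. All members were named, and of the lists the genes called in the same direction in both clones with a mean of at least 1 CPM. The level of 1 marker of other lineages is not reported here. The likeness to other genes was taken on the log2 scale of CPM (prior count 3).

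Alternatives were DESeq2 1.42.0, no filter on low counts, only the groups compared, a replicate block, a term for resent libraries, glmTreat, limma 3.58.1 on log2(FPKM + 1) and log2(FPKM + 0.1), and fits without each library. In simulated counts for clone 1 against HMC-1.2 over 15683 genes, edgeR recovered 83 of 100 genes changed 2-fold and 90 of 100 changed 4-fold, with 2 false calls. Only 200 genes were changed there, equally up and down. In the measured comparison 59.4% of genes passed by adjusted p alone, so the number of false calls does not carry over to it.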

Additional observations from a re-analysis of the deposited data

Results flagged for a closer look

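SPRY2 is singled out because its difference from HMC-1.2 was not the same in the 2 HMC-1.3 clones. Clone 1 against clone 2 gave a log2 difference of -1.06 (edgeR's quasi-likelihood test, adjusted p = 1.03e-05), with 55 to 63 counts in the 3 libraries of clone 1 and 110 to 158 in those of clone 2. Over the 20 alternatives this difference ran from -1.14 to -0.57 and kept its direction, and it fell under 1.5-fold only on the log2(FPKM + 1) scale. Clone 1 was lower in 3 of 3 libraries. Why the clones differ was not tested.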

How the results depend on the processing

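DUSP4 was called against HMC-1.2 under each of the 20 alternatives, with log2 values of 2.69 to 2.77 for clone 1, 2.68 to 2.73 for clone 2 and 2.72 to 2.77 for HMC-1.1. SPRY2 stayed called for clone 1 and HMC-1.1 under the same alternatives. SPRY4, not called for clone 1 against HMC-1.2 in the main fit, was called there under 2 of them. The number of members called for clone 2 against HMC-1.2 was 2, and 1 with glmTreat and with limma on either FPKM scale, which lost SPRY4, and leaving out a library gave 1 to 2. For clone 2 against HMC-1.1 leaving out a library gave 1 to 2, since SPRY4 was called without replicate 2 of HMC-1.1 (-1.54). For clone 1 against clone 2, limma on log2(FPKM + 1) gave 0 and leaving out a library 1 to 2. The direction turned only where no call was made, and the cause was not tested. Leaving out a library gave -0.0421 to 0.0207 for ETV4 and -0.748 to 0.162 for SPRY4 (clone 1 and HMC-1.1 against HMC-1.2, respectively), -0.0137 to 0.0274 for SPRED2 (clone 2 against HMC-1.2), -0.0070 to 0.0592 for ETV4 (clone 2 against HMC-1.1) and, between the clones, -0.0226 to 0.0130 for DUSP4, -0.0214 to 0.0322 for DUSP6 and -0.0674 to 0.0210 for ETV5. With limma and pseudocounts of 1 and 0.1 the values were 0.0182 and 0.0191 for SPRED1 (clone 2 against HMC-1.1) and 0.0320 and 0.0333 for ETV5 (between the clones). DUSP4 between the clones was -0.0083 with DESeq2 and -0.0030 with no filter. Replicate numbers did not pair the libraries, as same-numbered libraries of different groups deviated with correlations of -0.04 to 0.10, and with the replicate block the counts of members called were 2, 2, 2, 0, 1 and 1, as without it. The order of groups by FPKM differed from that by CPM for SPRY1, SPRED1 and ETV4. Depth limits SPRY1 and SPRY4, which had at most 24 counts in a library.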
